A study of Homo sapiens with 4 samples.

Results

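The granins and the machinery of prohormone processing were described here through 10 genes, selected by gene name among the 50868 genes counted in A549 cells. They were the granins SCG2, SCG3, CHGA and CHGB, the granin-related precursor VGF, the convertase chaperone SCG5, the convertases PCSK1 and PCSK2, the carboxypeptidase CPE, and SCGN, a calcium sensor of secretory cells. All 10 had a row in the count files, and 6 of them (SCG2, CHGB, CHGA, VGF, SCG5 and CPE) had enough counts to be among the 15222 genes tested. A549 is a human lung adenocarcinoma line. The study asked which transcripts differ when these cells overexpress the deubiquitinase USP12, an enzyme that removes ubiquitin from other proteins. The 4 RNA libraries were 2 from control cells and 2 from cells with a tagged USP12 delivered in a lentiviral vector. The labels name the control only as CON, and the study's figure legends describe it as a vector control. All 4 came from the same line, and neither the labels nor the methods say whether a line was 1 clone or a pool, or whether replicates were separate cultures, so p-values measure the spread between these libraries, which may be technical.

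Granins are acidic proteins of the regulated secretory pathway. In endocrine cells and neurons they aggregate with calcium in the trans-Golgi network, help to form dense-core vesicles, and are released together with the hormones stored there. Convertases cut prohormones and granins at paired basic residues, carboxypeptidase E trims the basic residues left behind, and the chaperone encoded by SCG5 escorts PCSK2 to its site of activation. These genes are used as markers of neuroendocrine tumours, and single members are also transcribed in some adenocarcinoma lines.

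Promoters of several members hold the cyclic AMP response element (CRE), the palindrome TGACGTCA bound by CREB family factors. The promoter windows of RefSeq (GRCh38.p14), from 250 bases before to 50 after each annotated start, covered 8 of the 10 genes with 10 windows, and SCG2 and CHGB had no entry. The full CRE was in windows of 3 members, CHGA, VGF and PCSK1, and in 642 of 34943 promoters, or 1.84%. These windows are shown because they share this element, with its letters in capitals. CHGA lies on the plus strand, at chr14:92922900-92923199, and VGF and PCSK1 on the minus strand, at chr7:101165520-101165819 and chr5:96433199-96433498 (the upstream of 2 PCSK1 starts).
CHGA: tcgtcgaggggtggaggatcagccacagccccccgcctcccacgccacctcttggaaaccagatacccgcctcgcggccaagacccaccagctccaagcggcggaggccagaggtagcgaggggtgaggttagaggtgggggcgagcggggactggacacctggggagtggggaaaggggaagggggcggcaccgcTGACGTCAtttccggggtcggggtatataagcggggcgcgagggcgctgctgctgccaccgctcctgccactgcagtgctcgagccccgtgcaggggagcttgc
VGF: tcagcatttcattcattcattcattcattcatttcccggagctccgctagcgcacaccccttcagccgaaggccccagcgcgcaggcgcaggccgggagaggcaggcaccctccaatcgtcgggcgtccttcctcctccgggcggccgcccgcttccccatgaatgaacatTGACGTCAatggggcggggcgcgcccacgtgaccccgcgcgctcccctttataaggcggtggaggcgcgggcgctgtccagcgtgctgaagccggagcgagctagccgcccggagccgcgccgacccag
PCSK1: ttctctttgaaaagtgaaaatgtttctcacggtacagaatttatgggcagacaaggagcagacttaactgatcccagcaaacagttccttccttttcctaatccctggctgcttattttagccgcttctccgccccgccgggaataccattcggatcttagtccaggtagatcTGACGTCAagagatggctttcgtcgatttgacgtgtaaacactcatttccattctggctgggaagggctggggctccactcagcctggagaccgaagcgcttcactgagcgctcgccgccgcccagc

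Counted from the annotated start, the element lay at -54 to -47 in CHGA, at -79 to -72 in VGF and at -77 to -70 in PCSK1. Its core TGACG, searched on both strands and also counted where it is part of a full element, was in 24.5% of all promoters. It also occurred alone in CPE, at -221 and -120, in SCG5, at -17, in SCG3, in both windows of PCSK2 and, beside the full element, in PCSK1. The windows of SCGN and of the downstream PCSK1 start held neither. Another element searched was that of REST, a repressor of neuronal genes in other cells. The search used its left part TTCAGCACC and right part GGACAGCGC in this order, on both strands, with 0 to 12 bases between them. Both parts were found in 5 of 34943 windows, or 0.0143%, and 1 of these was the SCG3 window on the plus strand at chr15:51681253-51681552, shown because no other member held them. The capitals mark both parts, which lay at 9 to 34 after the start with 8 bases between them.
SCG3: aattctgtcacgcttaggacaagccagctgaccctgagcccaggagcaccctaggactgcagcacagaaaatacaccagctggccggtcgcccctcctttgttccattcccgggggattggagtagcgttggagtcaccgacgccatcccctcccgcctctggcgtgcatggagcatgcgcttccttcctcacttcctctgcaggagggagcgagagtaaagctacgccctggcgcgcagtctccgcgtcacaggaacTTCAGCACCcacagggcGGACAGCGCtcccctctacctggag

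**Figure D1:**
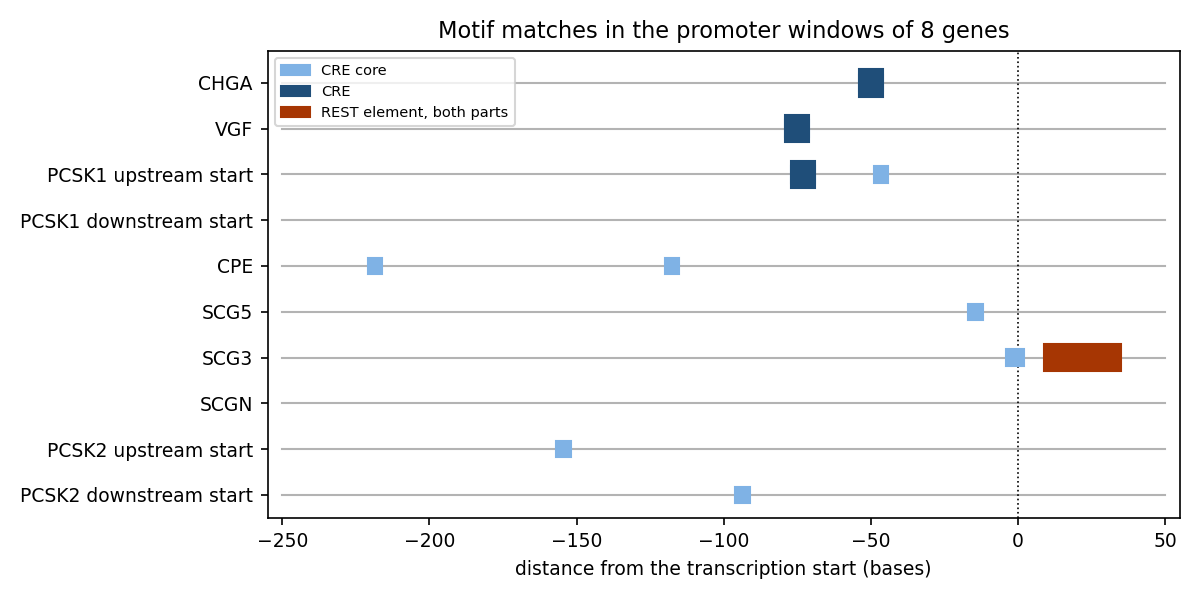
Positions of the CRE, of its core and of the paired REST parts in the 10 promoter windows of 8 members, with the distance from the annotated start in bases on the x axis and 1 line per window. The full element sits between -79 and -47 in CHGA, VGF and PCSK1, and the REST parts sit after the start in SCG3.

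The libraries held between 14280081 and 16305356 counts of uniquely mapped fragments. Values below are counts, or CPM, counts relative to library size, scaled by edgeR's TMM factors, on which 3 counts, taken as the floor, were worth 0.166 to 0.227 CPM. This floor and all intervals cover counting error only. USP12 was at 15.2 and 34.4 CPM in the control libraries and at 1742 and 2232 CPM in the USP12 libraries, so every library matched its label. CDKN2A, deleted in A549, had 0 counts in all 4. The controls differed more from each other than the USP12 libraries did. The SD of the log2 ratio over the tested genes was 1.32 against 0.62. Against USP12 libraries 1 and 2, it was 1.1 and 1.01 for control 2, and 1.28 and 1.31 for control 1. Control 2 was thus closer to both USP12 libraries than to control 1. The column heading of control 1 has another date-like prefix than those of the other 3 libraries. This prefix covers 1 library, so it cannot be told apart from that library. Of the neuroendocrine markers, INSM1 and NEUROD1 had 0 counts in all libraries, and NCAM1 had 1 count in all libraries together, while others were transcribed. UCHL1, also expressed in many tumour lines, was at 739 and 607 CPM in the controls and 698 and 616 CPM with USP12, ENO2 at 96.7 and 20.2 against 37.7 and 32.5 CPM, and DLL3 at 15.0 and 2.99 against 7.04 and 4.57 CPM, all with overlapping groups. SYP was read at 11.1 and 7.75 against 5.46 and 4.08 CPM, with a log2 fold change of -0.98 (SE 0.52) that missed the criterion given below.

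Between USP12 and control libraries, SCG2 was 24.6-fold lower and CHGB 3.44-fold lower. CHGA was also lower in both USP12 libraries, while VGF, SCG5 and CPE had overlapping groups, and SCG3, PCSK1, PCSK2 and SCGN were too low to test. No member had an adjusted p under 0.05 in edgeR's quasi-likelihood test, and 0% of all tested genes had one. An unadjusted p under 0.05 was found for 1155 genes and 2 members. In the same test, USP12 itself had a log2 fold change of 6.32 (SE 0.57) and an adjusted p of 0.0974. The criterion used here follows the cut-offs of the study, a p of at most 0.05 and a log2 fold change at or below -1, with the p taken as unadjusted, since the study does not say which it is. It was met by 2 of the 6 tested members, SCG2 and CHGB, and by 4.41% of all tested genes. The mirrored criterion, with a log2 fold change at or above 1, was met by 0 members and by 2.92% of tested genes. Both USP12 libraries were below both controls for 3 of the 6 members, against 17% of tested genes, and above both for 0, against 19.5%. The median log2 fold change of the 6 was -0.93, that of all tested genes -0.06. The 6 passed a filter that a gene high in 1 group can pass through that group alone. CHGA, with 6 and 11 counts in the USP12 libraries, passed it through the controls. The count of 3 is thus in part set by the filter, and neither it nor this median stands for all 10.

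**Figure D2:**
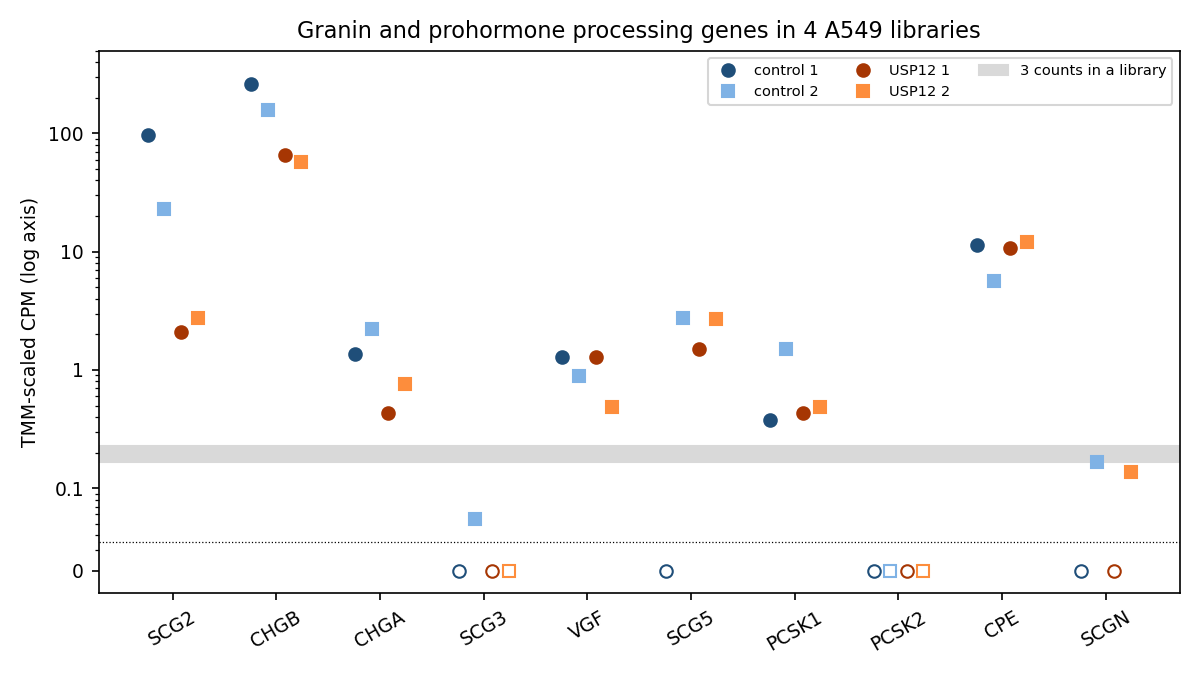
Level of each of the 10 genes in the 4 libraries, in CPM on a log axis, with 1 point per library, open symbols at the bottom for a count of 0 and a grey band for the level of 3 counts. SCG2, CHGB and CHGA have both USP12 libraries below both controls, CPE, VGF, SCG5 and PCSK1 overlap, and SCG3, PCSK2 and SCGN lie at about the band or under it.

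SCG2 (ENSG00000171951, GRCh38 chr2:223596940-223602361, minus strand) encodes secretogranin II, a granin that is the precursor of secretoneurin. It had 1280 and 417 counts in control 1 and control 2, and 29 and 40 counts in USP12 libraries 1 and 2. These correspond to 96.7 and 23.1 CPM against 2.08 and 2.77 CPM. The control libraries were 4.19-fold apart and the USP12 libraries 1.33-fold, and the lowest control was 8.34-fold above the highest USP12 library. The log2 fold change was -4.62 (SE 0.82, unadjusted p = 0.00125, adjusted p = 0.21, edgeR quasi-likelihood test), and 71 tested genes had a lower one. Without control 1 it was -3.24, and without control 2 it was -5.30. The size of the difference thus depended on which control was used, while the criterion was met in all 10 alternative fits, with adjusted p between 5.25e-10 and 0.237. A fit blocked on replicate number gave -4.28 (adjusted p = 5.07e-07). A gene's own spread does not enter this fit, nor the unfiltered fit that gave 5.25e-10.

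CHGB (ENSG00000089199, chr20:5911510-5925353, plus strand) encodes chromogranin B, a granin that binds calcium in the vesicle core, and had the highest level of the 10 genes. Its counts were 3479 and 2876 in the controls and 912 and 824 in the USP12 libraries. In CPM, these were 263 and 159 against 65.6 and 57.0. The controls were 1.65-fold apart, the USP12 libraries 1.15-fold, and the groups were separated by 2.43-fold. The log2 fold change was -1.78 (SE 0.41, unadjusted p = 0.00438, adjusted p = 0.298, edgeR quasi-likelihood test). It lay between -2.09 and -1.38 over the 10 alternatives, with adjusted p from 0.00394 to 1. The criterion was missed without USP12 library 1 (log2 fold change -1.89) and without USP12 library 2 (-1.68). In both of these fits the spread came from the controls alone and was shared over genes, so that CHGB's own spread did not enter. The blocked fit, which a gene's own spread does not enter, gave -1.74 (adjusted p = 0.0269).

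CHGA (ENSG00000100604, chr14:92923150-92935285, plus strand) encodes chromogranin A, the most widely used blood marker of neuroendocrine tumours. It was read at 18 and 40 counts in the controls and at 6 and 11 counts in the USP12 libraries, or 1.36 and 2.21 against 0.431 and 0.761 CPM. The groups did not overlap in CPM, but the 95% Poisson interval of control 1, 10.7 to 28.4 counts, overlapped that of USP12 library 2, 5.49 to 19.7. CHGA passed the low-count filter through the controls, so its place among the tested genes depended on the group where it was higher. The log2 fold change was -1.57 (SE 0.80, unadjusted p = 0.0958, adjusted p = 0.791, edgeR quasi-likelihood test), which missed the criterion. Without control 1, it was -1.88 and met it (unadjusted p = 0.0338, adjusted p = 0.139, with adjusted p between 0.139 and 1 over 9 alternatives). Control 1 is the library that stands apart, and without it the criterion was met by 3 members in the lower direction, against 7.97% of tested genes, and by 1 in the higher direction, against 8.15%.

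SCG3 (ENSG00000104112, chr15:51681492-51721026, plus strand) encodes secretogranin III, which links granin aggregates to the vesicle membrane. It had 1 count, in control 2, and 0 in the other libraries. VGF (ENSG00000128564, chr7:101162509-101165569, minus strand), the precursor of several neuropeptides, had 17 and 16 counts in the controls and 18 and 7 in the USP12 libraries. At 1.28 and 0.885 against 1.29 and 0.484 CPM, the groups overlapped. Its log2 fold change was -0.28 (SE 0.86, adjusted p = 0.979, edgeR quasi-likelihood test) and ranged from -1.15 to 0.26 when single libraries were left out, so no direction can be given at this depth.

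SCG5 (ENSG00000166922, chr15:32641676-32697098, plus strand) encodes the chaperone and inhibitor of PCSK2. It had 0 counts in control 1 and 50 in control 2, against 21 and 39 in the USP12 libraries. The intervals of control 1 (0 to 3.69 counts) and control 2 (37.1 to 65.9 counts) did not meet, so the controls differed by more than the counting error, and the USP12 libraries lay between them. The log2 fold change was 0.58 (SE 1.48, adjusted p = 0.976, edgeR quasi-likelihood test) and became -0.39 without control 1. Without control 2, the remaining control library was at 0, and the fitted value of 7.88 met the criterion but is no bound on a fold. The read-through gene ARHGAP11A-SCG5 shares 1129 exonic bases with SCG5 on the same strand and has no row in the count files, and SCG5-AS1 overlaps on the other strand, so the counts of SCG5 are uncertain. Its partner PCSK2 (ENSG00000125851, chr20:17226107-17484578, plus strand), the convertase of late secretory granules, had 0 counts in all 4 libraries.

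PCSK1 (ENSG00000175426, chr5:96390333-96434143, minus strand) encodes the other convertase of the regulated pathway. It had 5 and 27 counts in the controls and 6 and 7 in the USP12 libraries, or 0.378 and 1.49 against 0.431 and 0.484 CPM, and was not tested. Control 2 was 3.95-fold above control 1, which was the lowest of the 4 libraries, so the groups overlapped. SCGN (ENSG00000079689, chr6:25652201-25701783, plus strand) had 0 and 3 counts in the controls and 0 and 2 in the USP12 libraries, at or under the floor in each. An unnamed gene on the same strand shares 896 exonic bases with it.

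CPE (ENSG00000109472, chr4:165361194-165498547, plus strand) encodes carboxypeptidase E. It had 150 and 103 counts in the controls and 149 and 175 in the USP12 libraries. At 11.3 and 5.70 against 10.7 and 12.1 CPM, control 1 lay between the USP12 libraries and control 2 below them. The log2 fold change was 0.42 (SE 0.53, unadjusted p = 0.456, adjusted p = 0.946, edgeR quasi-likelihood test). Without control 1 it was 1.00 (unadjusted p = 0.0179, adjusted p = 0.0959) and met the criterion in the higher direction, and without control 2 it was 0.02. Over the 10 alternatives its adjusted p ranged from 0.0959 to 1.

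**Figure D3:**
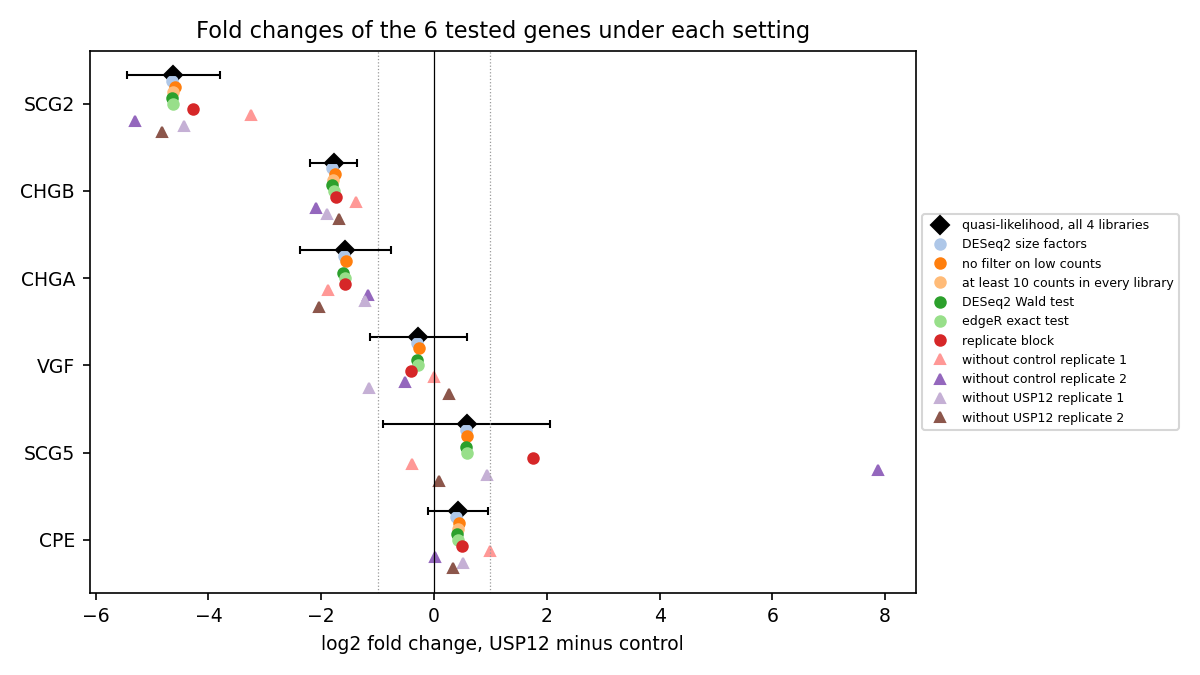
Log2 fold change of USP12 against control for the 6 tested members in the edgeR quasi-likelihood fit (diamond, with its SE as the bar) and in its alternatives, 1 point per fit, with triangles for fits without 1 library and dotted lines at -1 and 1. All fits of SCG2 lie between -5.30 and -3.24 and all of CHGB between -2.09 and -1.38, while VGF and SCG5 have points on both sides of 0.

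Levels can be compared between genes only per length. In CPM per kilobase of exon, averaged over the 2 libraries of a group, CHGB was at 47.5 in control and 13.8 in USP12 libraries, and SCG2 at 23.2 and 0.941. In the controls, CHGB was above SCG2 in both libraries, but the neighbours were close in control 1, at 59.1 for CHGB and 37.5 for SCG2, and far apart in control 2, at 35.8 and 8.95. CPE followed with 2.73 in control and 3.66 in USP12 libraries, so that in the USP12 libraries its level, 3.43 and 3.88, was above that of SCG2, 0.809 and 1.07, whereas in the controls SCG2 was above CPE. SCG5, CHGA and VGF came next at under 1 CPM per kilobase in every group mean, and their order was not the same in all libraries.

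The composition of the summed member counts differed accordingly. The 10 genes together had 4949 and 3533 counts in the controls and 1141 and 1105 in the USP12 libraries. CHGB made up 70.3% and 81.4% of them in the controls, and 79.9% and 74.6% in the USP12 libraries, with no separation of the groups. SCG2 made up 25.9% and 11.8% against 2.54% and 3.62%, and CPE 3.03% and 2.92% against 13.1% and 15.8%, and these shares did not overlap. A share also depends on the other members in the sum, and the level of CPE itself had overlapping groups. The ratio of CHGB to SCG2 counts, which does not depend on the scaling of the libraries, was 2.72 and 6.90 in the controls and 31.4 and 20.6 in the USP12 libraries. The mean log2 ratio was 2.12 in control and 4.67 in USP12 libraries, a difference of 2.55. A two-sided exact permutation test gave p = 0.333, which is the smallest value that 2 libraries against 2 can give.

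The genes whose profile over the 4 libraries was nearest to that of SCG2, by Euclidean distance of centred log2 CPM, were ICAM1 (distance 0.260), HCN4 (0.315) and FBXL16 (0.326). ICAM1, an adhesion molecule for leucocytes, was at 227 and 48.2 CPM in the controls and at 5.82 and 6.64 CPM in the USP12 libraries. HCN4, a pacemaker channel, had 62 and 17 counts in the controls and 0 in both USP12 libraries. For CHGB, the nearest were SPIRE2 (0.071), ARAP2 (0.146) and TYMP (0.158). SPIRE2, an actin nucleator, was at 95.8 and 54.1 CPM in the controls and at 22.8 and 20.1 CPM in the USP12 libraries. With 4 points per profile, such likeness is a description, and no test was made.

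Among 21 further enzymes and inhibitors of precursor processing, 16 were tested. Of these, 1 met the criterion in the lower and 2 in the higher direction, and the median log2 fold change was -0.52. For comparison with this and the following lists, 4.41% and 2.92% of all tested genes met it, and their median was -0.06. The lower gene was CPD, a carboxypeptidase of the trans-Golgi network, at 236 and 307 CPM in the controls and 122 and 146 CPM with USP12 (a log2 fold change of -1.02, SE 0.35, and -0.81 at its weakest when 1 library was left out). The higher genes were CPM, a carboxypeptidase of the cell surface, whose log2 fold change was 2.16 (SE 0.67), and PAM, the enzyme that amidates peptide ends. PAM was at 20.3 and 12.9 CPM in the controls and at 39.8 and 38.5 CPM with USP12, a log2 fold change of 1.24 (SE 0.45). MDM2 overlaps exons of the CPM gene on the other strand, and its counts are uncertain. FURIN, the convertase of the constitutive pathway, had a log2 fold change of -0.56, and PCSK1N, an inhibitor of PCSK1 that is sometimes grouped with the granins, one of -0.77, and neither met the criterion.

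Of 47 prohormone and neuropeptide precursor genes, 21 had 0 counts in all libraries and 12 were tested, of which 4 met the criterion in the lower direction and 0 in the higher. The median was 0.18. GAL, the galanin precursor, had 20 and 19 counts in the controls and 0 and 2 in the USP12 libraries. NTS, the neurotensin precursor, was at 121 and 22.7 CPM in the controls and 19.3 and 16.8 CPM in the USP12 libraries, and its log2 fold change went from -1.99 (SE 0.78) to -0.33 without control 1. ADM2, a peptide of the calcitonin family, was at 21.2 and 25.6 against 6.83 and 6.99 CPM (log2 fold change -1.76, SE 0.45). SBF1 overlaps it on the other strand. NUCB2, the nesfatin precursor, which an unnamed gene overlaps on the other strand, had a log2 fold change of -1.14 (SE 0.41). GAL passed the filter through the controls alone, and 3 precursors in place of 4 met the criterion among genes with at least 10 counts in every library. In the other direction, UCN2, the urocortin 2 precursor, had 0 and 11 counts in the controls and 58 and 21 in the USP12 libraries (log2 fold change 3.10, SE 1.34, unadjusted p = 0.0598), so both USP12 libraries were above both controls, but the criterion was missed. PTHLH (0.76), EDN1 (0.86) and ADM (-0.05) did not meet it either.

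The list of dense-core vesicle formation and exocytosis held 54 genes, of which 43 were tested. The criterion was met by 3 in the lower and 3 in the higher direction, with a median of -0.36. UNC13A, which primes vesicles for fusion, was at 32.3 and 62.1 CPM in the controls and at 4.10 and 6.29 CPM with USP12, a log2 fold change of -3.18 (SE 0.56). SYT5 had 40 and 28 counts in the controls and 5 and 2 in the USP12 libraries, and SYT7 had a log2 fold change of -2.28 (SE 0.77) that was -1.18 without control 1. Both are calcium sensors of the synaptotagmin family. SYT5 passed the low-count filter through the controls alone, so its place among the 3 lower genes is in part set by the filter. On the higher side, SYT13, an atypical synaptotagmin, was at 22.2 and 56.3 against 126 and 131 CPM, the SNARE protein gene STX6 at 9.75 and 9.02 against 29.9 and 35.7 CPM, and SNAP25, a SNARE of the plasma membrane, at 9.75 and 16 against 31.1 and 28.8 CPM. The log2 fold changes were 1.71 (SE 0.52), 1.80 (SE 0.43) and 1.22 (SE 0.47). Other annotated genes overlap SYT7, SYT13, STX6 and SNAP25.

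Of 31 neuroendocrine regulators and markers, 17 were tested, 1 met the criterion in each direction, and the median was -0.09. DDC, the decarboxylase of aromatic amino acids, was at 2.64 and 8.19 CPM in the controls and at 0.719 and 0.623 CPM with USP12, a log2 fold change of -3.0 (SE 0.81). PAX6, a transcription factor of islets and eye, was at 1.66 and 1.16 against 5.39 and 3.94 CPM (log2 fold change 1.72, SE 0.63). Both have a gene on the other strand. DDC, with 10 and 9 counts in the USP12 libraries, passed the low-count filter through the controls alone. Among genes with at least 10 counts in every library, 0 of this list met the criterion in the lower direction. REST had 10.7 and 38.2 CPM in the controls and 18.0 and 23.2 in the USP12 libraries, with a log2 fold change of -0.25 (SE 0.66), and the groups overlapped. The 6 genes of the CREB family and its coactivators on the list, CREB1, CREM, ATF1, CRTC1, CRTC2 and CRTC3, lay between -0.32 and 0.48, and 0 of them met the criterion.

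In none of these 4 lists did a gene have an adjusted p under 0.05 in edgeR's quasi-likelihood test. Of the 15 genes named from them by rule, 1, UNC13A, met the criterion with each of the 4 libraries left out in turn, and 14 lost it in at least 1 of these fits. The 0 to 4 genes meeting it per list and direction are to be read beside 4.41% and 2.92% of all tested genes.

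Marker lists of the tissue and of other cells were read in the same fit. Of 10 lung and epithelial markers, 6 were tested and 1 met the criterion in the lower direction, against 4.41% of all tested genes. This was KRT19, at 436 and 114 CPM in the controls and 68.6 and 55.8 CPM with USP12 (its log2 fold change was -2.14, and -0.87 without control 1). The median log2 fold change of the 6 was -0.8, against -0.06 for all tested genes. Both USP12 libraries were below both controls for 4 of the 6 and above both for 0, against 17% and 19.5% of tested genes. The summed level of this list, mostly KRT8 and KRT18, was 9626 and 5054 CPM in the controls and 4270 and 3971 CPM in the USP12 libraries. Of 11 markers of leucocytes, endothelium and fibroblasts, 4 were tested and 3 met the criterion in the lower direction, again beside 4.41% of all tested genes. They were CDH5 and PECAM1, of endothelium, and LYZ, of myeloid cells, with CDH5 at 10.3 and 5.31 against 0.144 and 0.346 CPM. All 3 passed the filter through the controls alone, and PDGFRB, of pericytes and fibroblasts, which had 0 counts in both controls and 6 and 11 in the USP12 libraries, was not tested, so the count of 3 among 4 is in part set by the filter. The remaining tested marker, COL1A1, of fibroblasts, lay the other way, at 13.0 and 2.60 CPM in the controls and 18.8 and 14.6 CPM with USP12 (log2 fold change 1.10, SE 0.78), and missed the criterion. CD3E and DCN had 0 counts in all libraries, PTPRC had 1 count in each of 2 libraries, and the summed level was 32.3 and 12.7 CPM in the controls and 20.6 and 17.4 in the USP12 libraries, with overlapping groups and COL1A1 as its main part in the USP12 libraries. The part of these markers in the levels of SCG2 and CHGB was not tested. In RNA from a whole culture, fewer cells that transcribe a gene cannot be told apart from less RNA per cell.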

How the data were processed

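RNA from 4 A549 libraries was analysed, 2 control and 2 USP12, grouped by the treatment given in the labels. From stranded mRNA libraries, the authors took out adaptor and ribosomal sequence, aligned the reads to GRCh38 with HISAT2 2.0.4 and derived gene counts with StringTie 1.3.0. The deposited values are raw counts of 50868 genes. Which annotation was counted, and whether strand was used, are not given in the sources used here.

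Counts were filtered with filterByExpr, scaled by TMM and tested with edgeR 4.0.16 (quasi-likelihood, two-sided, Benjamini-Hochberg over 15222 genes). Depth was 14280081 to 16305356 counts per library. The SE, an approximation, is the log2 fold change over the root of F. Log2 CPM used a prior count of 2. The quasi-likelihood fit was tried on simulated data, as were the fits with DESeq2 size factors, the Wald test, the exact test and the replicate block. The other steps were not. The members and lists were chosen with earlier results of these data known. Named were all members, USP12, up to 4 genes per list and direction that met the criterion with groups apart, and the 3 nearest profiles of SCG2 and CHGB. Other list genes and markers were named after their values were seen. Alternatives were DESeq2 size factors, no filter, at least 10 counts in every library, edgeR's exact test, a Wald test in DESeq2 1.42.0, a block on replicate number and fits with 1 library left out. Gene positions and overlaps came from GENCODE release 44, promoters from RefSeq. No deposited column was left out as belonging to another sample. The values of some marker genes are not reported here.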

Additional observations from a re-analysis of the deposited data

How the results depend on the processing

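SCG2, CHGB, CHGA and CPE kept their direction in every alternative in which they were tested (CHGA was not tested with at least 10 counts in every library, nor were VGF and SCG5). The number of members with an adjusted p under 0.05 was 0 in the edgeR quasi-likelihood test, and 2 (SCG2 and CHGB) without a filter, with the DESeq2 Wald test, with the exact test and with the replicate block. Over all tested genes it was 0, against 528, 422, 429 and 402 in these fits. The prior degrees of freedom were 4.15, and were estimated as infinite without a filter, with the block and without either USP12 library, so that a gene's own spread does not enter those fits. Same-numbered samples deviated together only weakly (correlation 0.152 across genes, 2 pairs), so the numbers were not taken to pair the libraries.

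Without a filter, 24800 genes were tested in place of 15222. Of these, 1173 met the criterion in the lower direction and 688 in the higher, against 671 and 445 with the filter. Processing enzymes meeting it in the lower direction numbered 4 without a filter and 2 with the DESeq2 Wald test, against 1. Prohormones in the higher direction numbered 1 without a filter, with the Wald test, the exact test and the replicate block, against 0. Over all tested genes, the higher direction held 516 with the Wald test, 530 with the exact test and 575 with the block, against 445. Dense-core vesicle genes in the lower direction numbered 11 without a filter and 7 with the Wald test, against 3. They numbered 6 with the exact test and 5 with the block. Over all genes, 947 of 24800 met the criterion in the lower direction with the Wald test. With the exact test and the block, 804 and 717 of 15222 did, against 671. Neuroendocrine genes in the lower direction numbered 2 without a filter and 0 with at least 10 counts in every library, against 1. In the latter fit, 521 of 13319 tested genes met the criterion in the lower direction.

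With each library left out in turn, members meeting the criterion numbered 1 to 3 lower and 0 to 1 higher, and 0 to 3 had an adjusted p under 0.05. Over all tested genes the ranges were 274 to 2049 lower, 171 to 2371 higher and 36 to 5017 with an adjusted p under 0.05. Lower and higher genes numbered 0 to 4 and 0 to 4 for processing enzymes, 0 to 4 and 0 to 5 for prohormones, 1 to 11 and 0 to 6 for dense-core vesicle genes, and 0 to 5 and 0 to 2 for neuroendocrine genes. VGF ranged from -1.15 to 0.26 and SCG5 from -0.39 to 7.88. The lone library of a group is then assumed to vary like the other group, and the cause of these shifts was not tested.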
